A study of Mus musculus with 6 samples.

Results

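The coronin family of the mouse, with the genes Coro1a, Coro1b, Coro1c, Coro2a, Coro2b, Coro6 and Coro7, was followed in control cells and in cells given valproic acid (VPA). The family was taken up because Coro1a was higher with VPA in these same arrays, and the other 6 genes are included as relatives of Coro1a. Each of the 7 genes had a single probe set on the array that carried its symbol alone, so 7 of the 19938 genes tested are coronins and none was lost to a filter. The sample titles and the design text call the samples murine prostate cancer cells, 3 control and 3 VPA, each on its own Affymetrix mouse Gene 1.0 ST array. VPA is a drug against epilepsy that inhibits histone deacetylases. The sources used here name no cell line, dose or length of treatment. Other fields of the same samples call the controls differentiated stem cells of strain 129SV, and the VPA samples undifferentiated stem cells of strain Stra8-EGFP/Rosa26. Under those fields treatment, strain and differentiation cannot be told apart, and every difference below is given by the titles, as VPA minus control.

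The arrays had median log2 values from 7.15 to 7.18 and none repeated another. Along the first principal component, which held 50.1% of the variance, control replicate 2 (score -3.8) and VPA replicate 3 (2.2) lay between the other controls (-21.2 and -18.5) and the other VPA arrays (20.2 and 21.1). The values carry no detection call. The measured prostate and epithelial markers lay at log2 values from 3.41 to 8.04 over 9 genes. The secreted prostate protein gene Pbsn lay at 3.41 to 3.76, and the epithelial genes Epcam and Cdh1 at 5.79 to 6.17 and 6.42 to 6.62. The highest of the list were Hoxb13 at 7.86 to 8.04 and Krt8 at 7.25 to 7.99, above the median of every array. Of the pluripotency markers, Pou5f1 lay at 4.99 to 5.86 and Zfp42 at 4.13 to 4.43, whereas Sox2, also a gene of neural progenitors, lay at 10.98 to 11.71. Without detection calls none of these markers can be called absent, and the cells are named here by their titles only.

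Coronins are actin-binding proteins built around a propeller of WD repeats. Most of them end in a coiled coil through which the protein oligomerises and meets the Arp2/3 complex, the machine that starts new actin branches. They restrain or redirect that complex and bring in cofilin, which takes filaments apart. Type I coronins (Coro1a, Coro1b, Coro1c and Coro6) act at the cell edge, type II coronins (Coro2a and Coro2b) at adhesions and, for Coro2a, in the nucleus, and Coro7, with a pair of propellers and no coiled coil, at the Golgi. Coro1a is best known from leukocytes, where its loss causes T cell deficiency, and is also made in neurons.

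Stretches of the 250 bases before the annotated start were read for 6 of the 7 coronins from RefSeq (build GRCm38.p6). That of Coro1b was not matched. Those of 3 members are shown because their transcripts marked the range of the family: Coro1a with the highest difference, Coro1c with the smallest spread between arrays and Coro2b with the lowest difference. They lie upstream of Coro1a at chr7:126704817-126705066, of Coro1c at chr5:113908707-113908956 and of Coro2b at chr9:62537045-62537294, all on the minus strand, and are written 5′ to 3′ on the gene's strand. Capitals mark matches on either strand to the GC box GGGCGG, the CCAAT box CCAAT, the cAMP response half-site TGACG, the ETS core GGAAGT or the RUNX core TGTGGT. The TATA box TATAAA and the E-box CACGTG were searched too and had no match in these 3 stretches.
Coro1a: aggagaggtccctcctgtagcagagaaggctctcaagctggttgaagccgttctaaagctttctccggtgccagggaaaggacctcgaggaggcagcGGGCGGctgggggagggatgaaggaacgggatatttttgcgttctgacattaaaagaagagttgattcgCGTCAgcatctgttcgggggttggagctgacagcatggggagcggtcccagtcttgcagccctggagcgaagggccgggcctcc
Coro1c: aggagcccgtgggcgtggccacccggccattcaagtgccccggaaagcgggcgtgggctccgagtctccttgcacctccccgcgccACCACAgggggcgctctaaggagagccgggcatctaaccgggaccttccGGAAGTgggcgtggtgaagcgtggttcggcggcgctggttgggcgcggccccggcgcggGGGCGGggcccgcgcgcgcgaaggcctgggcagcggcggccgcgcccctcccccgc
Coro2b: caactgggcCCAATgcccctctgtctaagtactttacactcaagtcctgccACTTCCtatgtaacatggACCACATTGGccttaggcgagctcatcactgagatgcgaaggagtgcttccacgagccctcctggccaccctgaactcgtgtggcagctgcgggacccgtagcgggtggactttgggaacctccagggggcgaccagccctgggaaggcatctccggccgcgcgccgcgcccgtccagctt
The Coro1a stretch held 13 CpG dinucleotides at 58.8% GC, the Coro2b stretch 15 at 62% and the Coro1c stretch 34 at 76.8%. The median of 32851 annotated stretches of the same length was 6 CpG at 52.4% GC. At the start listed first for each gene Coro2a held 33 CpG, Coro6 28 and Coro7 14. For Coro6 this stretch (chr11:77462330-77462579) lies inside the annotated gene, which begins at 77462321. At the starts listed first all 6 coronins had more CpG than the median, and Coro1a had the fewest of them. At a second annotated start Coro1a held 8 CpG, Coro2a 3 and Coro6 4, the last 2 below the median. The Coro1a stretch carried 1 GC box, found in 32.7% of all stretches, and 1 cAMP response half-site, found in 17.8%. It held no match to the ETS core (19.7% of stretches) or the RUNX core (14%), while Coro1c and Coro2b each had 1 match to both. At the first starts listed, Coro2a and Coro6 also had no match to either core, and Coro7 had 1 to the RUNX core alone. Coro7 shared 1 cAMP response half-site with Coro1a. In Coro2b a CCAAT match and the RUNX match share a base. Coro2b held 2 CCAAT boxes (33.8% of stretches) and no GC box. These matches are descriptions of letters, not of bound factors.

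Coro1a, the actin regulator of leukocytes and neurons, was higher with VPA. Its log2 value (probe set 10568024, gene at chromosome 7) was 7.39, 7.59 and 7.38 in control replicates 1, 2 and 3, and 8.52, 8.27 and 8.01 in VPA replicates 1, 2 and 3. Every VPA array lay above every control array, and the arrays closest to the other group were control replicate 2 and VPA replicate 3, the same that lay between the groups on the first principal component. The means were 7.46 ± 0.12 (SD, n = 3) and 8.27 ± 0.25 (SD, n = 3), a log2 difference of 0.81 (SE 0.13), or 1.75-fold. This difference ranked 112 among the 19938 genes, counted from the largest increase. Since Coro1a was chosen on this contrast, the values are a description and no test is given. The difference was 0.68 without VPA replicate 1, the lowest with any single array left out, and 0.94 without VPA replicate 3, the highest. Without both control replicate 2 and VPA replicate 3, a setting chosen after seeing the data, it was 1.01. In RNA from a bulk of cells, more cells with the transcript and more transcript per cell cannot be told apart.

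None of the other 6 coronins passed limma's moderated test at an adjusted p under 0.05, a threshold that 2.34% of all genes passed, 1.71% as higher and 0.632% as lower. None had an unadjusted p under 0.05 either, which 18.1% of all genes had. With each gene's own variance none of the 6 had one, against 14.5% of all genes, and 0 of all genes passed after adjustment, so that a count of 0 called there holds for any list. Their groups overlapped in every case. Over all genes the groups did not overlap in 23.1%, 11.1% with VPA higher and 12% with VPA lower. A list of 6 genes is too short for its counts of 0 to be told apart from these shares. The median of the 6 differences was 0.018 on the log2 scale, against -0.035 for all genes. Labels call the samples biological replicates without naming separate cultures, so that these p-values measure the spread between the arrays.

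**Figure D1:**
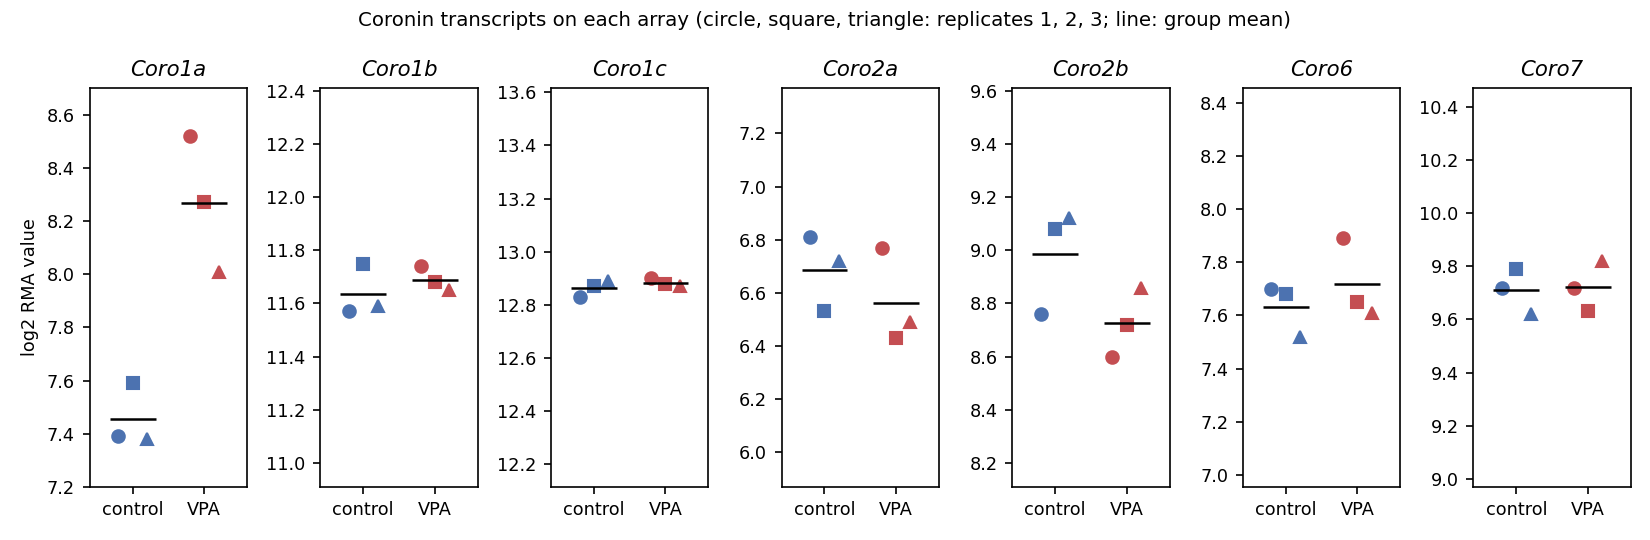
Log2 RMA value of each coronin transcript on each of the 6 arrays, with 1 panel per gene and the same height of scale in all panels. Symbols are replicates 1, 2 and 3 and lines are group means (n = 3). The Coro1a points separate by group (7.38 to 7.59 against 8.01 to 8.52), and the points of the other 6 genes overlap between groups.

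Of the other type I coronins, Coro1b, which promotes the turnover of Arp2/3 branches at the leading edge, had log2 values of 11.57, 11.75 and 11.59 in the control replicates and 11.74, 11.68 and 11.65 in the VPA replicates. The highest value was that of control replicate 2, and all VPA values lay within the range of the controls. Its log2 difference was 0.05 (95% interval from -0.14 to 0.25, n = 3 per group, limma adjusted p = 0.786). Coro1c, the widely made coronin of lamellipodia and endosomes, was the steadiest of the family. It lay at 12.83, 12.87 and 12.89 in the control replicates and at 12.90, 12.88 and 12.87 in the VPA replicates. All 6 values fell within 0.07 of each other on the log2 scale, and its residual SD of 0.0246 was lower than that of all but 0.436% of genes. The Coro1c difference was 0.02 (interval from -0.16 to 0.20, limma adjusted p = 0.917). Coro6, a coronin of skeletal muscle and brain, lay at 7.70, 7.68 and 7.52 in the control replicates and at 7.89, 7.65 and 7.61 in the VPA replicates. VPA replicate 1 stood above the rest, and the other VPA values lay among the controls. The Coro6 difference was 0.08 (interval from -0.15 to 0.31, limma adjusted p = 0.706), and -0.00519 without VPA replicate 1. Of 8 muscle markers set beside it, limma's test called none (background 2.34%) and 1 had an unadjusted p under 0.05 (background 18.1%). Their differences ran from -0.21 for Acta1, skeletal actin, to 0.14 for Des, the filament protein desmin.

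The type II coronins had the lowest differences of the family. Coro2a, which associates with the NCoR corepressor complex that holds histone deacetylase 3, lay at 6.81, 6.53 and 6.72 in the control replicates and at 6.77, 6.43 and 6.49 in the VPA replicates. Replicate 1 was the highest in each group, and the groups overlapped. The Coro2a difference was -0.12 (interval from -0.38 to 0.13, limma adjusted p = 0.595). Coro2b, a coronin abundant in the nervous system that acts at focal adhesions, lay at 8.76, 9.08 and 9.12 in the control replicates and at 8.60, 8.72 and 8.86 in the VPA replicates. The lowest control, replicate 1, lay below the highest VPA array, replicate 3, and otherwise all controls were above all VPA arrays. The Coro2b difference was -0.26 (interval from -0.52 to 0.01, unadjusted p = 0.0548, limma adjusted p = 0.287), the largest in size among the 6 relatives of Coro1a.

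Coro7, the Golgi coronin that takes part in export from the trans-Golgi network, lay at 9.72, 9.79 and 9.62 in the control replicates and at 9.72, 9.63 and 9.82 in the VPA replicates. The highest and the lowest of the 6 values came from VPA replicate 3 and control replicate 3, 0.20 apart. The Coro7 difference was 0.02 (interval from -0.19 to 0.22, limma adjusted p = 0.946), and its sign turned to minus when the arrays were quantile-normalized a second time (-0.0164) or centred on their medians (-0.00459). The sign of Coro1c turned as well with centring on medians (-0.000257). The upper ends of the intervals of the 6 genes ran from 0.01 for Coro2b to 0.31 for Coro6. They are not set against the 0.81 of Coro1a, because that value chose the family. Differences between the members were not tested.

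**Figure D2:**
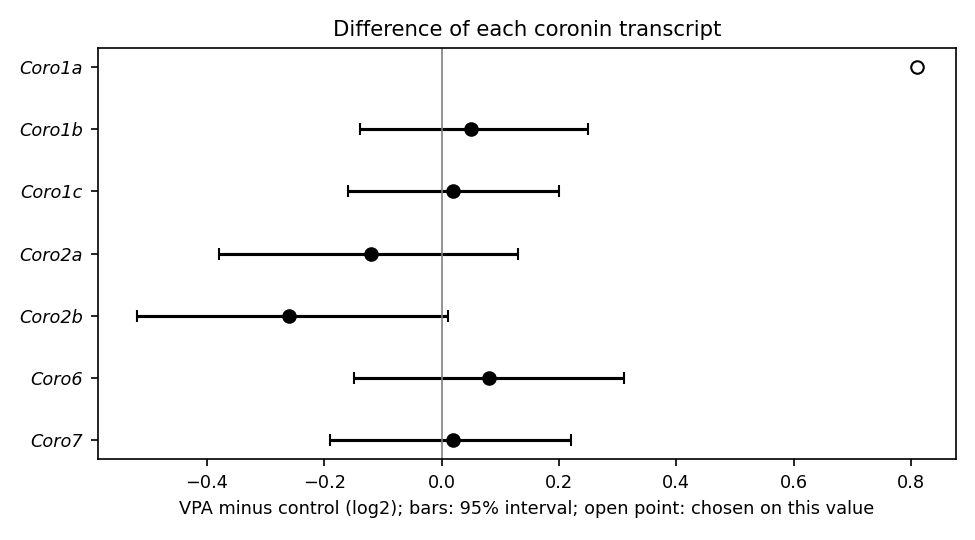
Log2 difference, VPA minus control, of the 7 coronin transcripts, with the 95% interval of limma's fit (n = 3 per group) as bars. The open point is Coro1a at 0.81, drawn without an interval because it chose the family; the intervals of the other 6 genes include 0.

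The pattern of Coro1a over the arrays was also set against every other gene, as the root-mean-square distance between log2 values after each gene's own mean over the 6 arrays was taken off. A small distance means the same rises and falls of the same size. The 5 nearest named genes were Map7d2, a microtubule-associated protein of neurons, at a distance of 0.0394, L3mbtl3, a reader of methylated lysines, at 0.0495, Caprin2, an RNA-binding protein, at 0.0584, Intu, a planar polarity effector of cilia, at 0.0606, and Strip2, a member of the STRIPAK phosphatase and kinase assemblies, at 0.0621. Map7d2 lay at 7.11, 7.37 and 7.18 in the control replicates and at 8.33, 8.03 and 7.85 in the VPA replicates, with VPA replicate 3 and control replicate 2 again closest to each other. The differences of the 5 genes were 0.85, 0.86, 0.73, 0.76 and 0.83 in that order. They were picked for a pattern that includes the contrast, so no test is given for them. Of the other coronins the closest was Coro6 at 0.378 (rank 3701 of 19937 genes, nearest first) and the farthest Coro2b at 0.588 (rank 18564). The median distance of all genes was 0.467. Since the distance includes the contrast that chose Coro1a, genes with small differences lie far from it by construction. The distances of the other coronins are thus a description only.

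**Figure D3:**
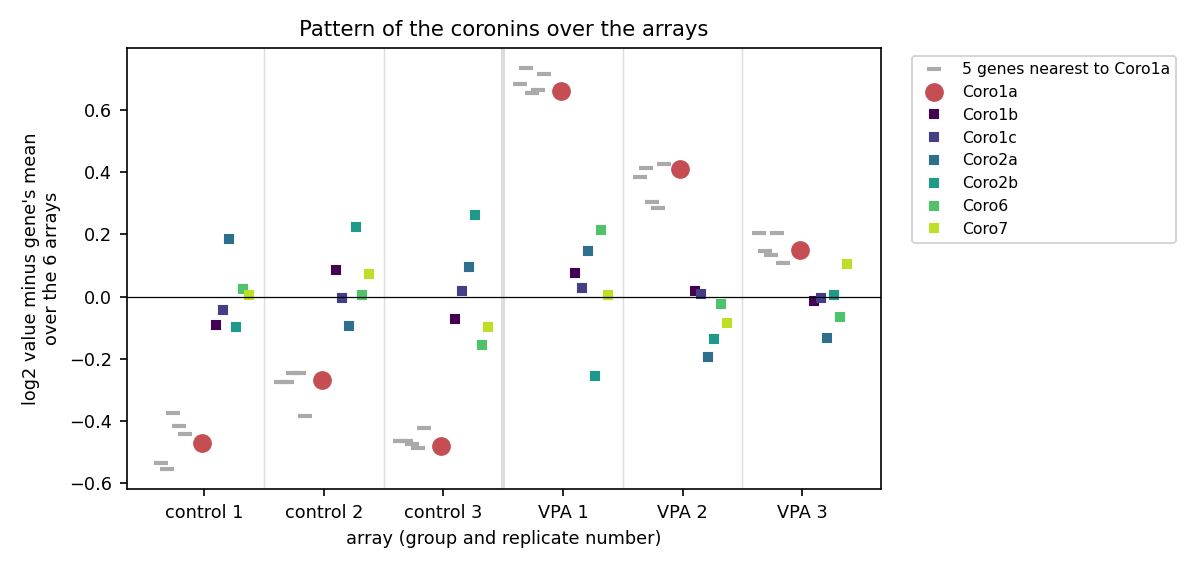
Log2 value minus the gene's own mean over the 6 arrays, by array. Red circles are Coro1a, grey bars the 5 genes at the smallest distance from it (0.0394 to 0.0621), and small squares the other 6 coronins. Coro1a and the 5 nearest genes lie below 0 on all control arrays and above 0 on all VPA arrays, and each of the other 6 coronins overlaps between the groups.

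Because Coro1a is a gene of leukocytes and neurons, markers of both were measured beside it. Among 15 leukocyte markers limma's test called 1 lower with VPA (background 0.632%) and none higher (background 1.71%), and 14 did not pass. The tetraspanin gene Cd53 fell by 0.88 (SE 0.175, limma adjusted p = 0.0373), from 10.03, 10.09 and 9.75 in the control replicates to 8.65, 9.37 and 9.22 in the VPA replicates. The common leukocyte antigen gene Ptprc lay at 5.31 to 5.80 over all arrays, with a difference of -0.22. Markers with differences of the other sign were Lcp1, Cd68 at 0.21, Vav1 at 0.17 and Tyrobp at 0.03, and none of them passed. Lcp1, an actin-bundling protein of leukocytes, differed by 0.31 (unadjusted p = 0.0426, limma adjusted p = 0.258). The median difference over the 15 markers was -0.077, against -0.035 for all genes, and that of Cd53 was the largest in size. The mean level over the 15 markers, Cd53 included, lay between 6.57 and 6.64 in the controls and between 6.47 and 6.56 with VPA. Its part in the Coro1a difference was not tested. The Cd53 call was kept when VPA replicate 3 was left out and lost when any other single array was (adjusted p from 0.0608 to 0.142), and without both control replicate 2 and VPA replicate 3 (0.0519).

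Of 8 neuron markers, 2 rose (background 1.71%), none fell (background 0.632%) and 6 did not pass. Syt1, the calcium sensor of synaptic vesicles, lay at 10.43, 10.64 and 10.70 in the control replicates and at 11.39, 11.35 and 11.36 in the VPA replicates, a rise of 0.78 (SE 0.0946, limma adjusted p = 0.00973). Map2, a microtubule protein of dendrites, rose by 0.70 (SE 0.145, limma adjusted p = 0.0415), with VPA replicate 3 at 10.51 and control replicate 2 at 10.33 the closest across the groups. Tubb3, a neuronal tubulin, differed by 0.45 and did not pass (limma adjusted p = 0.055). Rbfox3 at -0.14, Snap25 at 0.01, Nefl at 0.04, Nefm at 0.16 and Elavl3 at -0.01 did not pass either. The median difference over the 8 markers was 0.097, against -0.035 for all genes. The mean level over the 8 markers lay between 7.43 and 7.54 in the controls and between 7.59 and 7.81 with VPA, and its part in the Coro1a difference was not tested. Syt1 lost its call when control replicate 1 was left out (adjusted p = 0.0509). Map2 lost it when control replicate 1 (0.159) or 3 (0.128) was left out, or VPA replicate 1 (0.155) or 2 (0.154).

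The genes next to each coronin in RefSeq order were taken up to see whether neighbours moved with it. Of the 42 nearest tested genes, 3 on each side of each coronin, limma's test called none (background 2.34%), and 10 were below 0.05 before adjustment (background 18.1%). With each gene's own variance 9 were below 0.05 before adjustment (background 14.5%). The groups did not overlap in 10 of them (23.8%, against 23.1% of all genes). Beside Coro1a, Bola2, an iron-sulphur cluster protein, differed by 0.25 (limma adjusted p = 0.204) and Gdpd3, a lysophospholipase D, by -0.27 (limma adjusted p = 0.183). Sult1a1, Slx1b, Ypel3 and Tbx6 lay between -0.11 and 0.09. Ssh1 and Ssh2, genes of the slingshot phosphatases that activate cofilin, stand next to Coro1c and Coro6. Ssh1 differed by -0.12 and Ssh2 by 0.12 (limma adjusted p 0.591 and 0.639), and neither passed. Ptprcap, the leukocyte gene next to Coro1b, differed by -0.02 (limma adjusted p = 0.925).

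The actin machinery that coronins act on was described from 6 lists with 78 measured genes. Of these, 3 rose with VPA, 1 fell and 74 did not pass limma's test, which is 5.13% called against 2.34% of all genes. The lists were chosen with earlier results of these data known, so these shares are a description and their difference was not tested. Before adjustment 11 of the 78 were below 0.05 (background 18.1%). The median difference over the 78 genes was 0.01, against -0.035 for all genes, and their groups did not overlap in 15 genes (19.2%, against 23.1%). The count of 4 was 0 without control replicate 1 or control replicate 3, 1 without VPA replicate 1 or VPA replicate 2 and 8 without both control replicate 2 and VPA replicate 3.

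No measured subunit of the Arp2/3 complex passed limma's test (background 2.34%), with 1 of 7 below 0.05 before adjustment (background 18.1%). Arpc5l differed by 0.24 (limma adjusted p = 0.18) and Arpc2 by -0.14 (limma adjusted p = 0.473), and the differences of the 7 ran between these values. Actr2, Actr3b and Arpc3 were not analysed here. Arpin and Gmfb, which inhibit the complex or undo its branches, differed by -0.18 and -0.16 (limma adjusted p 0.352 and 0.433). None of the 4 measured genes of that kind passed (background 2.34%) or had an unadjusted p under 0.05 (background 18.1%).

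All but 1 of the called actin genes were among the activators of the complex and the WAVE assembly. There 2 of 19 rose (background 1.71%), 1 fell (background 0.632%) and 16 did not pass. Before adjustment 3 with a rise and 1 with a fall were below 0.05 (background 18.1% in either direction). Cyfip2, a subunit of the WAVE assembly prominent in brain and lymphocytes, lay at 7.85, 7.88 and 7.81 in the control replicates and at 8.94, 8.52 and 8.56 in the VPA replicates. The VPA values stood clear of the controls, which differed little among themselves. With 3 arrays per group Cyfip2 rose by 0.83 on the log2 scale, or 1.77-fold (SE 0.118, limma adjusted p = 0.0139).

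Wasf1, which encodes WAVE1, the form of the WAVE protein abundant in brain, lay at 7.59, 7.68 and 7.38 in the control replicates and at 8.24, 8.18 and 7.98 in the VPA replicates. The groups did not overlap, and Wasf1 rose by 0.59 (SE 0.109, limma adjusted p = 0.0287). Abi2, another subunit, differed by 0.41 (limma adjusted p = 0.173), and the paralogues Wasf2 and Wasf3 by 0.11 and -0.06. Wipf1, which binds and stabilises the WASP protein, lay at 9.00, 9.32 and 9.16 in the control replicates and at 8.49, 8.71 and 8.58 in the VPA replicates. All VPA values were below all controls, and Wipf1 fell by 0.57 (SE 0.106, limma adjusted p = 0.0297). The leukocyte members Was, Hcls1 and Nckap1l differed by -0.01, -0.08 and 0.13 and did not pass.

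The remaining called actin gene was Pak3, the PAK kinase made mostly in brain. It lay at 11.05, 11.27 and 11.17 in the control replicates and at 11.91, 11.81 and 11.58 in the VPA replicates, with no overlap. Pak3 rose by 0.60 (SE 0.109, limma adjusted p = 0.0273), while Pak2 and Pak4 differed by 0.01 and 0.05. Without control replicate 1 the adjusted p was 0.0659 for Cyfip2, 0.103 for Wasf1, 0.118 for Pak3 and 0.0646 for Wipf1, and without control replicate 3 it was 0.0541, 0.0944, 0.0872 and 0.0944. Without VPA replicate 1 or VPA replicate 2 Cyfip2 kept its call and the others lost it (0.119 or 0.114 for Wasf1, 0.108 or 0.107 for Pak3, 0.121 or 0.0769 for Wipf1), and Wipf1 also lost it without control replicate 2 (0.0536).

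Cofilin and its regulators, the partners through which coronins shorten filaments, held no gene that passed among 14 measured (background 2.34%). Among these 14, 1 had an unadjusted p under 0.05 (background 18.1%). Limk1, the kinase that switches cofilin off, differed by 0.44 and Pdxp, a phosphatase that switches it on, by 0.39 (limma adjusted p 0.161 and 0.295). Cfl1, the main cofilin gene, differed by -0.13 and the slingshot gene Ssh3 by -0.13 as well. Without both control replicate 2 and VPA replicate 3, Limk1 passed at an adjusted p of 0.00954 with a difference of 0.71. Among 23 genes for capping, crosslinking and elongation of filaments limma called none (background 2.34%), with 3 at an unadjusted p under 0.05 (background 18.1%). Gsn, the severing protein gelsolin, differed by 0.50 and Capg, a capping relative of it, by -0.46 (limma adjusted p 0.0679 and 0.104). Gsn lay at 9.70, 10.14 and 9.71 in the control replicates, and passed without control replicate 2, at an adjusted p of 0.0177 with a difference of 0.64. Gsn also passed with a trended prior (adjusted p = 0.0453).

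Partners of coronins outside actin were 10 measured genes. None passed (background 2.34%) or had an unadjusted p under 0.05 (background 18.1%). The subunits of calcineurin, the phosphatase linked to coronin 1A in macrophages and T cells, differed by 0.08 for Ppp3ca, 0.06 for Ppp3cb and less than either for Ppp3r1. Klhl20 and Cul3, the ubiquitin ligase that modifies coronin 7 at the Golgi, differed by 0.21 and 0.14 (limma adjusted p 0.413 and 0.451), and the adaptor subunit gene Ap1b1 differed by 0.16 (limma adjusted p = 0.403). The differences of the 10 genes ran from -0.09 to 0.21.

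**Figure D4:**
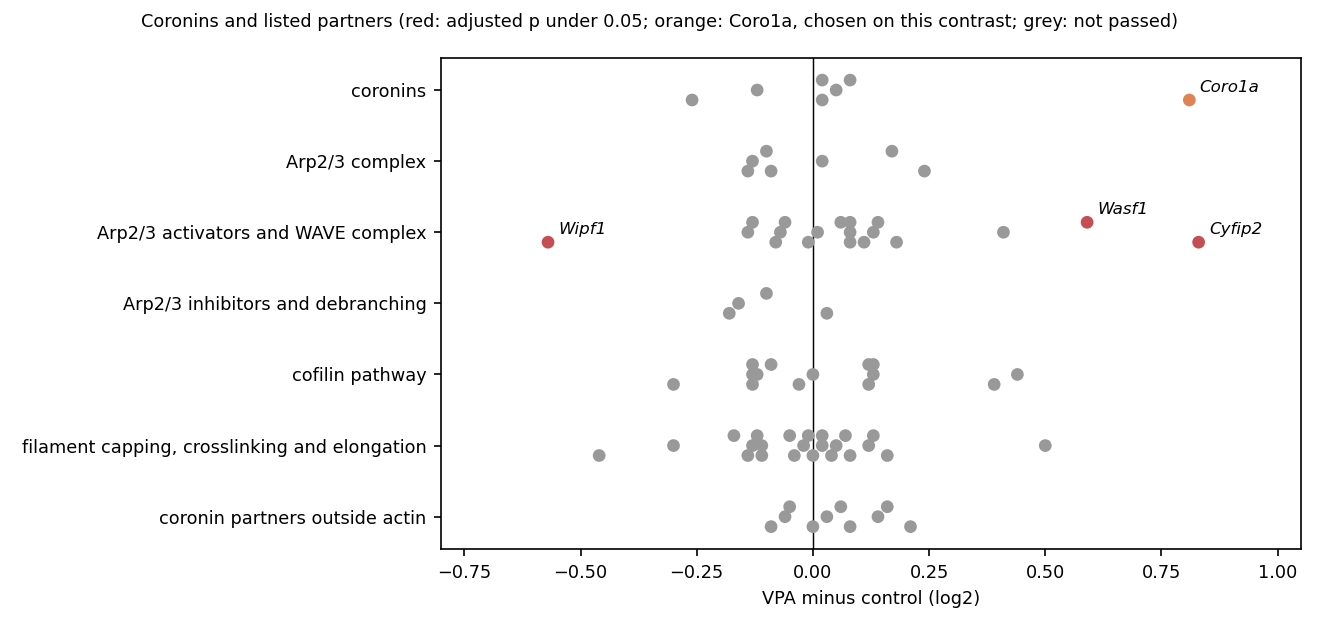
Log2 difference, VPA minus control, of the 7 coronins and of the measured genes of the lists on the Arp2/3 complex, its activators and inhibitors, cofilin, filament capping and coronin partners, 1 point per gene. Red points passed limma's test (Cyfip2 at 0.83, Wasf1 at 0.59 and Wipf1 at -0.57), the orange point is Coro1a, and the grey points, which did not pass, lie between -0.46 and 0.50.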

How the data were processed

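RNA was extracted with Trizol, treated with DNase I, and 300 ng was biotin-labelled, per the labels' protocols. The authors deposited log2 values; the submitters' processing notes name RMA and Expression Console as tools, without versions or a genome build. RMA forces all arrays to one distribution, which would hide a shift shared by most transcripts. Samples were grouped by title. Of 35556 probe sets, 21789 had 1 gene symbol, 1621 several and 12146 none listed. The probe set with the highest mean stood for each gene, giving 19938 genes.

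Group means were compared with limma 3.58.1 (lmFit and eBayes in R 4.3.3), two-sided, with Benjamini-Hochberg adjustment over all genes. The test was tested on simulated data with noise drawn independently for each array, which leaves out structure shared between arrays. Precision is limited by having 3 arrays in each group (median SE 0.101). Exact permutation of 3 against 3 values cannot go below p = 0.1 and was not used. The coronins, the lists and the rules for naming genes were chosen with earlier results of these data known. Named were all coronins, called genes of each actin or partner list or the 2 with the smallest p, any cell marker, the 5 nearest patterns and 3 neighbours a side; other members of the lists are named as family relatives and were chosen after their values were seen. The counts of 1 of the 6 actin lists are not reported here on their own. Predicted genes, receptors of smell and small RNAs were left out of the nearest patterns. Upstream stretches are the first 250 of 300 bases in a RefSeq table.

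Alternatives were a filter (log2 of at least 6 in at least 3 arrays), other scalings, another prior, a replicate block, averaging the probe sets of each gene, testing every probe set, variances not moderated and each array left out.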

Additional observations from a re-analysis of the deposited data

How the results depend on the processing

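The Coro1a difference, which chose the family and so supports nothing, ran from 0.68 to 1.01 over the 15 alternatives. The 6 other coronins passed in none of them (lowest adjusted p 0.114). The count of changed actin regulators, 4 as reported, was 7 with the replicate number as a block, 0 with every probe set tested, 0 with variances not moderated, 0 to 5 with 1 array left out and 8 without both control replicate 2 and VPA replicate 3, a setting chosen after seeing the data. The count of changed genes, 467 as reported, was 1199 with the replicate block, 2 with every probe set tested, 0 with variances not moderated (2898 at an unadjusted p under 0.05), 20 to 815 with 1 array left out and 1349 without both arrays. The count was 20 when control replicate 1 was left out, 515 for control replicate 2 and 71 for control replicate 3. It was 66 for VPA replicate 1, 72 for VPA replicate 2 and 815 for VPA replicate 3. With the block Gsn, Capg and Limk1 also passed (adjusted p 0.0239, 0.0176 and 0.0475). The cause was not tested. The samples share only a number. Residuals of same-numbered arrays correlated at 0.08, 0.45 and 0.28 for replicates 1, 2 and 3. Control replicate 1 correlated better with VPA replicate 3 (0.2) than with its own number. The remaining pairs of unlike number lay between -0.43 and 0.03. These values are a hint from the data, and whether same-numbered arrays belong together was not tested. The sign turned for Coro7 with a second quantile normalization (-0.0164), with centring on medians (-0.00459), and when control replicate 3 (-0.03) or VPA replicate 3 (-0.0326) was left out, for Coro1c with centring (-0.000257) and for Coro6 without VPA replicate 1 (-0.00519). With arrays left out Coro7 ranged from -0.0326 to 0.063 and Coro6 from -0.00519 to 0.159. With centring on medians 66.7% of changed genes were higher, against 73% as reported. Without detection calls, the distance of any coronin from background is unknown.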
